A study of Rattus norvegicus with 9 samples.

Results

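The genes described here are 8 enzymes of cholesterol synthesis, Hmgcs1, Mvd, Idi1, Fdps, Fdft1, Sqle, Lss and Cyp51, measured by RNA-seq in rat kidney after ischaemia-reperfusion (I/R) with and without rapamycin. They were taken by gene name from the FPKM table that the authors deposited, which holds 11235 of the 30454 gene IDs counted. Every gene of that table reached 1 FPKM in 8 or more of the 9 libraries, so being in it depends on expression. The 8 were also chosen with earlier results of these data known. All 8 were found and passed the filter on low counts, as did 11232 of the 11235 genes of that table. In all, 17335 genes were tested. Shares over all genes given below are over these, unless another total is given. They therefore take in genes outside the FPKM table, whereas the 8 and the other gene lists come from within it. Each of 3 groups of wild-type Sprague-Dawley rats, aged 6 to 8 weeks, gave 3 poly(A) libraries: I/R + rapamycin, which is an injured kidney from a rat given rapamycin, an inhibitor of the kinase complex mTORC1; I/R without rapamycin; and sham, an operated rat without ischaemia. The ischaemia lasted 45 min, which the series description gives as a clamp on the left renal artery. The labels do not settle the rest of the model. The series description has male rats given 1 mg/kg/day by intraperitoneal injection, whereas the sample protocols have rats of both sexes, gavage, 6 groups, a dose of 1 or 2 mg/kg/day and 3 or 7 days of reperfusion, so the dose, route, sex and time behind each library are not known here.

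The labels call the samples kidney and also tubular cells. Markers of podocytes, endothelium and macrophages were detected in every library beside those of the tubule, so the values are read as whole kidney. The labels do not say whether the libraries of a group came from separate rats, and p-values then measure only the spread between libraries, which may be technical. In bulk tissue, fewer cells of a type and less RNA per cell cannot be told apart, and this holds for every difference below.

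Cholesterol is made from acetyl-CoA by the mevalonate pathway, and these enzymes stand along it in order. Hmgcs1 makes HMG-CoA in the cytosol, Mvd decarboxylates mevalonate diphosphate to isopentenyl diphosphate, Idi1 isomerises that product, and Fdps condenses the isomers to farnesyl diphosphate, which also feeds protein prenylation, dolichol and ubiquinone. Fdft1 commits farnesyl diphosphate to squalene, Sqle epoxidises squalene, Lss closes the ring to give lanosterol, and Cyp51 removes a methyl group from lanosterol. Their transcription is controlled together by the factor SREBP-2, which is released from the endoplasmic reticulum with its escort Scap when sterol is low and is held there by the Insig proteins. SREBP-2 acts at promoters together with NF-Y, which binds CCAAT boxes, and Sp1, which binds GC boxes, and mTORC1 is known to promote SREBP activity.

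The promoters of Hmgcs1, Mvd and Idi1 are shown because these are the genes on which the comparisons below turn, Hmgcs1 and Idi1 having the higher values in I/R kidneys than in sham kidneys and Mvd the lower. Each window runs from 250 bases before to 50 after the RefSeq gene start in the build GRCr8, written in the direction of the gene. They lie at chr2:53382054-53382353 on the plus strand, at chr19:67414925-67415224 on the minus strand and at chr17:66547475-66547774 on the minus strand. Capitals mark a CCAAT box or a GGGCGG box, which reads ATTGG or CCGCCC where the match is on the other strand.
Hmgcs1: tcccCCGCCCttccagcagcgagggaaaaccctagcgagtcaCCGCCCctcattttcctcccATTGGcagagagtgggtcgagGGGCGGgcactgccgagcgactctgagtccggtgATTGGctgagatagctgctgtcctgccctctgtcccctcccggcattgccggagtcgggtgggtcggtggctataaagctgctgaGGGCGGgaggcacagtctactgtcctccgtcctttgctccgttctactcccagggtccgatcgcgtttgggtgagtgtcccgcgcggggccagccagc
Mvd: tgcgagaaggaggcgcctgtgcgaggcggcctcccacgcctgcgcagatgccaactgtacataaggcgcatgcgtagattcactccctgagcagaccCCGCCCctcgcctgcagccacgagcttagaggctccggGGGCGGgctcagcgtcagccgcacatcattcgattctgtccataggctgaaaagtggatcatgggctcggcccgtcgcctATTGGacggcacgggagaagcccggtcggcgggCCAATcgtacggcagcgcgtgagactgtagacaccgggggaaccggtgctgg
Idi1: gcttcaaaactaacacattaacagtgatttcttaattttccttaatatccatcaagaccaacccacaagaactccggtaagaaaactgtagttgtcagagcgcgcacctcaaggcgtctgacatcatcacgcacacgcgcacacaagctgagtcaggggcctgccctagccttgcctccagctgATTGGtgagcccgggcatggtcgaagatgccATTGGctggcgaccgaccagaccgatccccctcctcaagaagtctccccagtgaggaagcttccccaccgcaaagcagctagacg
In Hmgcs1 the pair of CCAAT boxes starts 188 and 133 bases before the gene start, and the 4 GC boxes are spread over the window. In Mvd a CCAAT box on the other strand starts 35 bases before the gene start, and a further CCAAT box spans the gene start itself. Idi1 also has a CCAAT box on the other strand starting 35 bases before its start, with another at 66 bases before it, and it has no GGGCGG match. The RefSeq promoter table matched 6 of the 8 genes, all but Sqle and Fdft1, which are named only. CCAAT was found in 5 of the 6 windows, all but that of Cyp51, against 37.5% of all 33469 promoters in the table. GGGCGG was found in 5 of the 6, all but that of Idi1, against 33.1% of all promoters. A sterol regulatory element form, TCACNCCAC with N for any base, was searched on both strands and was found in 0 of the 6 windows and in 1.12% of all promoters. The motifs do not overlap each other in these windows. A match describes letters in a window, and the data here do not measure binding.

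**Figure D1:**
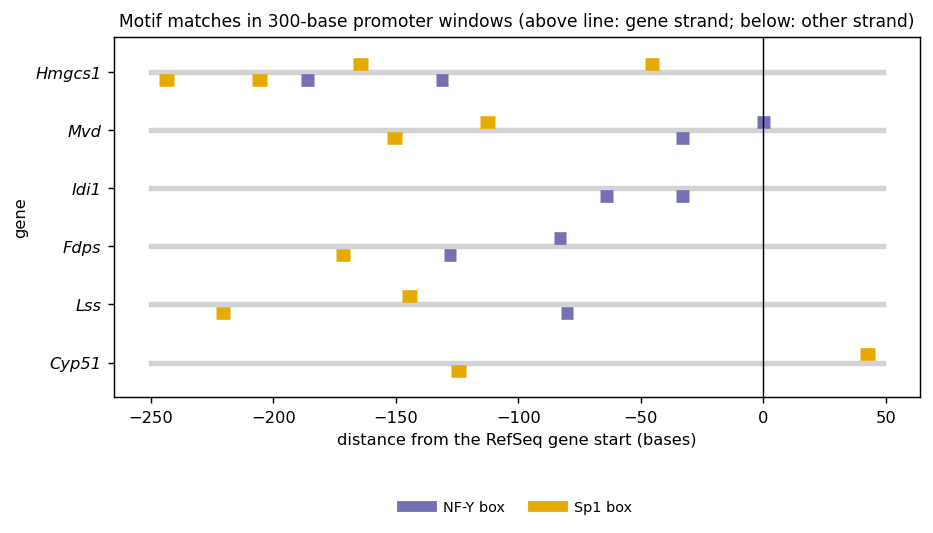
Matches to CCAAT (NF-Y box, purple) and GGGCGG (Sp1 box, yellow) in the 300-base promoter window of 6 cholesterol synthesis genes; the x axis is the distance in bases from the RefSeq gene start. Matches above a line are on the strand of the gene and matches below it on the other strand: 5 of the 6 windows hold each motif, with none for CCAAT in Cyp51 and none for GGGCGG in Idi1.

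The libraries held 44582251 to 60538627 counted reads. At that depth Mvd, the lowest of the 8, had 373 to 647 reads per library and Fdft1, the highest, had 7474 to 20845. Values per library are given below as CPM, reads scaled to the size of the library with TMM factors, and levels between genes are compared in FPKM, which divides by gene length. In sham kidneys the mean FPKM values fell into 3 tiers. Fdft1 stood alone at 14.3 ± 0.918 FPKM (SD, n = 3). Below it, Fdps at 8.66 ± 0.647 FPKM, Hmgcs1 at 7.70 ± 0.945, Cyp51 at 6.88 ± 1.49, Idi1 at 5.58 ± 0.830 and Sqle at 5.03 ± 0.791 (SD, n = 3 each) formed a series in which the SD intervals of neighbours overlapped. Lss at 3.16 ± 0.615 FPKM and Mvd at 3.02 ± 0.196 (SD, n = 3 each) were lowest and did not differ beyond their spread. Fdft1 was also the highest of the 8 and Mvd the lowest in I/R + rapamycin kidneys, at 16 ± 4.91 and 2.58 ± 0.0640 FPKM, and in I/R kidneys, at 20.1 ± 6.89 and 2.18 ± 0.113 FPKM (SD, n = 3 each). The length implied by counts and FPKM was 13927 bases for Fdft1, against a median of 3202 bases over the genes with an FPKM, so the level of Fdft1 relative to the others depends on that length. Fdps and Lss also had long implied lengths, 7661 and 6548 bases, so the tiers depend on these as well. In CPM, which does not divide by length, the sham means were 65.8 for Fdps and 31.6 for Hmgcs1. They were 20.5 for Lss, 17.6 for Idi1 and 15.7 for Sqle.

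I/R kidneys had higher mean values than sham kidneys for 7 of the 8 enzymes and a lower mean value for Mvd, but no gene of the 8 passed the test. The differences with the smallest p-values were those of Idi1, 1.53 times as high in I/R kidneys, Mvd, 0.710 times as high, Hmgcs1, 1.42 times as high, and Sqle, 1.45 times as high. Among all 17335 genes, 10 (0.0577%) were called in this comparison by edgeR's quasi-likelihood test at a Benjamini-Hochberg adjusted p under 0.05, against 0 of the 8. DESeq2 called 242 of the 16294 genes to which it gave an adjusted p (1.49%) and 1 of the 8, Idi1, at an adjusted p of 0.0447.

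At the start of the pathway, Hmgcs1 had 47.7, 42.5 and 44.6 CPM in I/R kidneys, against 27.2, 31.8 and 35.9 CPM in sham kidneys. Every I/R library lay above every sham library, and the lowest I/R value exceeded the highest sham value by more than the I/R libraries differed among themselves. The fitted log2 fold change, also written as log2 difference, was 0.51 (SE 0.139), with an unadjusted p of 0.00412 and an adjusted p of 0.293 by edgeR's quasi-likelihood test with Benjamini-Hochberg adjustment, as for the adjusted p-values that follow. Mvd, the next of the 8 along the pathway, had 6.70, 7.95 and 7.43 CPM in I/R kidneys, against 9.26, 11.1 and 10.8 CPM in sham kidneys. Here every I/R library lay below every sham library, the reverse of Hmgcs1. The log2 difference of Mvd by edgeR was -0.49 (SE 0.134), unadjusted p 0.00384 and adjusted p 0.288.

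Idi1, whose substrate is the product of Mvd, had 21.2, 29.1 and 30.5 CPM in I/R kidneys, against 14.9, 17.4 and 20.5 CPM in sham kidneys. The groups did not overlap, although I/R 1 was close to the highest sham library. The log2 fold change was 0.61 (SE 0.160), unadjusted p 0.00307 and adjusted p 0.283 by edgeR. Idi1 overlaps Wdr37 on the opposite strand in the annotation of the files, and since no strand setting is given in the sources used here, reads of the shared stretch cannot be told apart. Wdr37 averaged 27.3 ± 1.21 CPM in I/R kidneys and 25.1 ± 3.21 CPM in sham kidneys (SD, n = 3 each), a log2 difference of 0.12 (SE 0.120, adjusted p 0.803 by edgeR), and its log2 difference was 0.06 for I/R + rapamycin against sham (SE 0.120, adjusted p 0.878). Fdps, which makes farnesyl diphosphate, had 61.7, 73.7 and 74.6 CPM in I/R kidneys, against 60.9, 64.9 and 71.7 CPM in sham kidneys. These groups overlapped, with a log2 difference of 0.09 (SE 0.104, adjusted p 0.840 by edgeR), the smallest of the 8 in this comparison.

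On the squalene and lanosterol arm, Fdft1 had 177, 280.0 and 365 CPM in I/R kidneys, against 205, 200.3 and 188 CPM in sham kidneys. The I/R libraries lay on both sides of the sham libraries and spread over a coefficient of variation of 34.3%, against 4.53% in sham kidneys. The log2 difference of 0.47 had an SE of 0.296 and an adjusted p of 0.671 by edgeR. Sqle had 18.9, 23.3 and 26.2 CPM in I/R kidneys, against 13.2, 15.4 and 18.5 CPM in sham kidneys. These groups did not overlap, but the lowest I/R and highest sham libraries were almost equal, and the log2 fold change was 0.54 (SE 0.170, unadjusted p 0.00982, adjusted p 0.369 by edgeR). Lss had 21.8, 22.1 and 24.5 CPM in I/R kidneys, against 22.0, 16.4 and 23.0 CPM in sham kidneys, where sham 2 alone was low. Cyp51 had 27.7, 31.6 and 34.1 CPM in I/R kidneys, against 19.2, 22.9 and 29.8 CPM in sham kidneys, with sham 3 above the lowest I/R library. Their log2 fold changes were 0.15 (SE 0.139, adjusted p 0.779) for Lss and 0.38 (SE 0.169, adjusted p 0.525) for Cyp51 by edgeR.

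Read as a list, the 8 had a median log2 fold change of 0.425 in I/R against sham kidneys, beside 0.00327 over all genes tested, and 7 of the 8 were above 0, beside 50.7% of all genes. Without adjustment, 5 of the 8 had p under 0.05, beside 9.42% of all genes: 4 were higher in I/R kidneys, beside 4.83% of all genes, and 1 was lower, beside 4.59%. The groups did not overlap for 4 of the 8, beside 14.6% of all genes, with 3 higher, beside 7.43%, and 1 lower, beside 7.19%. A pair of libraries, I/R 1 and sham 3, stood at the same end of the first principal component of all genes. Without both of them, Idi1 passed the test in I/R against sham kidneys at a log2 difference of 0.88 and an adjusted p of 0.0330 by edgeR, while Mvd was at -0.41 with an adjusted p of 0.380. For Idi1, Fdps, Sqle, Lss and Cyp51, I/R 1 was the lowest I/R library and sham 3 the highest sham library. Leaving both libraries out thus had to widen the differences of these genes, and the pass of Idi1 is no separate support. The median of the 8 was 0.601 without both and 0.257 without I/R 3, where the smallest adjusted p among the 8 was 0.623 by edgeR.

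**Figure D2:**
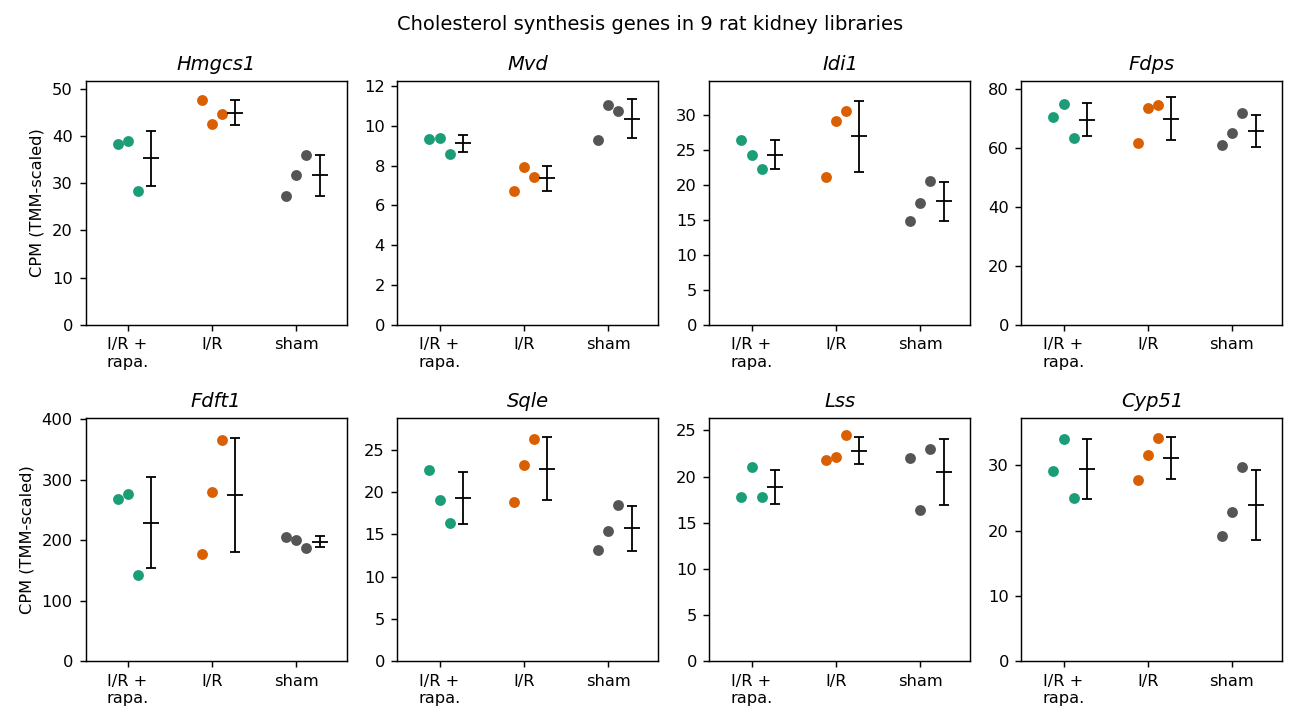
TMM-scaled CPM (y axis, from 0) of each of the 8 genes in every library of I/R + rapamycin, I/R and sham kidneys; points are libraries in replicate order and bars are the mean ± SD of 3 libraries. Mvd is lowest in I/R kidneys, at 6.70 to 7.95 CPM, while Hmgcs1 is highest there, at 42.5 to 47.7 CPM.

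Rapamycin-treated I/R kidneys had lower fitted values than untreated I/R kidneys for 7 of the 8 enzymes and a higher one for Mvd, and again no gene of the 8 passed the test. In size, 7 of the 8 fitted differences were below those of I/R against sham, all but that of Lss, and this difference in size was not tested. Hmgcs1 was 0.784 times as high in I/R + rapamycin kidneys, Lss 0.829 times and Mvd 1.24 times as high. Of all 17335 genes, 22 (0.127%) were called, against 0 of the 8, and DESeq2 called 693 of 15287 (4.53%), also with 0 of the 8. Any 2 of the 3 comparisons share the libraries of a group, so they are not independent of each other.

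Hmgcs1 had 38.3, 39.0 and 28.4 CPM in I/R + rapamycin kidneys, against 47.7, 42.5 and 44.6 CPM in I/R kidneys. Every rapamycin library was below every I/R library, with I/R + rapamycin 3 far below the other two. The log2 fold change was -0.35 (SE 0.138, unadjusted p 0.0285, adjusted p 0.257 by edgeR), and it was -0.22 without I/R + rapamycin 3 (adjusted p 0.398). Mvd had 9.35, 9.38 and 8.59 CPM in I/R + rapamycin kidneys, against 6.70, 7.95 and 7.43 CPM in I/R kidneys. Every rapamycin library was above every I/R library, so Mvd again went the other way from Hmgcs1. Its log2 fold change was 0.31 (SE 0.134, unadjusted p 0.0434, adjusted p 0.293 by edgeR). Lss, the lanosterol-forming cyclase, had 17.9, 21.0 and 17.8 CPM in I/R + rapamycin kidneys, against 21.8, 22.1 and 24.5 CPM in I/R kidneys. These groups did not overlap either, at a log2 difference of -0.27 (SE 0.139, adjusted p 0.365 by edgeR).

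The other 5 overlapped between I/R + rapamycin and I/R kidneys. Idi1 had 26.4, 24.2 and 22.3 CPM in I/R + rapamycin kidneys, against 21.2, 29.1 and 30.5 CPM in I/R kidneys, with the rapamycin libraries between the lowest and the other I/R libraries. Sqle had 22.6, 19.0 and 16.4 CPM in I/R + rapamycin kidneys, against 18.9, 23.3 and 26.2 CPM in I/R kidneys. Its log2 fold change was -0.24 (SE 0.170, adjusted p 0.520), and that of Idi1 was -0.15 (SE 0.160, adjusted p 0.686), by edgeR. For Fdft1, I/R + rapamycin kidneys had 268, 276 and 143 CPM, against 177, 280.0 and 365 CPM in I/R kidneys. Both groups held a low library, and the log2 fold change was -0.26 (SE 0.295, adjusted p 0.709 by edgeR). Fdps had 70.5, 74.7 and 63.5 CPM in I/R + rapamycin kidneys, against 61.7, 73.7 and 74.6 CPM in I/R kidneys. Cyp51 had 29.1, 34.1 and 24.9 CPM in I/R + rapamycin kidneys, against 27.7, 31.6 and 34.1 CPM in I/R kidneys. The values of Fdps and Cyp51 interleaved, with log2 fold changes of -0.01 (SE 0.104, adjusted p 0.982) and -0.08 (SE 0.169, adjusted p 0.848) by edgeR. The signs of Fdps, Cyp51 and Fdft1 in this comparison turned when single libraries were left out: Fdps was at 0.05 and Cyp51 at 0.02 without I/R + rapamycin 3, Fdps was at 0.03 without I/R 2 and at 0.04 without I/R 3, and Fdft1 was at 0.0015 without I/R 3.

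The median log2 fold change of the 8 for I/R + rapamycin against I/R kidneys was -0.194, beside 0.00586 over all genes, and 1 of the 8 was above 0, beside 50.8% of all genes. Without adjustment, 2 of the 8 had p under 0.05, beside 16.3% of all genes; 1 was higher, beside 7.11%, and 1 lower, beside 9.14%. Groups did not overlap for 3 of the 8, beside 24.6% of all genes; 1 was higher, beside 11.8%, and 2 lower, beside 12.8%. A share of 2 or 3 in 8 genes stands near these backgrounds and is not read as a result about the 8. The median was -0.03 when I/R 3 was left out and -0.05 when I/R + rapamycin 3 was left out.

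Against sham, I/R + rapamycin kidneys had higher fitted values for 6 of the 8 enzymes and lower ones for Mvd and Lss, and none passed the test. Of all genes, 27 (0.156%) were called, against 0 of the 8, and DESeq2 called 559 of 17302 (3.23%), with 0 of the 8. Idi1 was the gene of the 8 with the smallest p-value. It had 26.4, 24.2 and 22.3 CPM in I/R + rapamycin kidneys, against 14.9, 17.4 and 20.5 CPM in sham kidneys. All 3 rapamycin libraries were above all 3 sham libraries, and the fold was 1.38, a log2 difference of 0.46 (SE 0.160, unadjusted p 0.0153, adjusted p 0.248 by edgeR). Mvd had 9.35, 9.38 and 8.59 CPM in I/R + rapamycin kidneys, against 9.26, 11.1 and 10.8 CPM in sham kidneys. The groups touched at sham 1, and the log2 fold change was -0.19 (SE 0.133, adjusted p 0.580 by edgeR); on the FPKM scale the rapamycin libraries of Mvd were all below the sham libraries.

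For the rest, the CPM values of I/R + rapamycin and sham kidneys overlapped. Sqle had a log2 difference of 0.30 (SE 0.171, adjusted p 0.477) and Cyp51 one of 0.29 (SE 0.169, adjusted p 0.479) by edgeR. Fdft1 was at 0.21 (SE 0.295, adjusted p 0.797), Hmgcs1 at 0.15 (SE 0.139, adjusted p 0.666) and Fdps at 0.08 (SE 0.104, adjusted p 0.781) in the same test. Lss, with 17.9, 21.0 and 17.8 CPM in I/R + rapamycin kidneys and 22.0, 16.4 and 23.0 CPM in sham kidneys, was at -0.12 (SE 0.139, adjusted p 0.759 by edgeR). Their median of 0.184 stood beside 0.00120 over all genes, and 6 of 8 were above 0, beside 50.2%. Unadjusted p was under 0.05 for 1 of the 8, beside 13.8% of all genes, and that gene was higher, beside 6.06% higher and 7.75% lower over all genes. The groups did not overlap for 1 of the 8, beside 19.3% of all genes, and it was higher, beside 9.69% higher and 9.65% lower. The median was 0.09 without I/R + rapamycin 1, 0.07 without I/R + rapamycin 2, 0.34 without I/R + rapamycin 3 and 0.10 without sham 1.

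**Figure D3:**
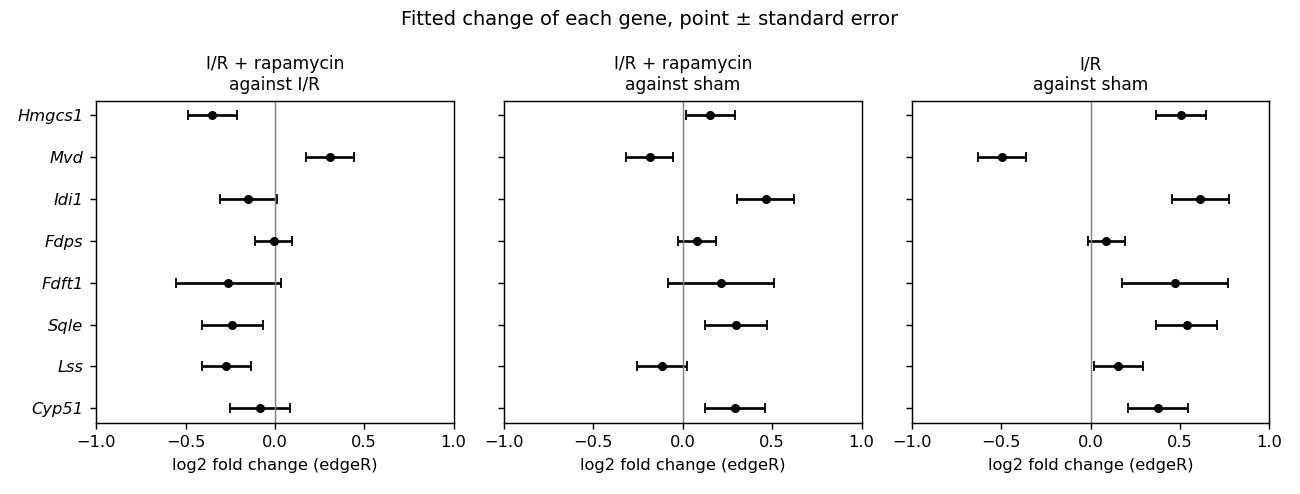
Fitted log2 fold change (x axis) of each of the 8 genes in 3 comparisons, by edgeR with all 9 libraries in 1 fit; points are estimates and bars are ± 1 standard error. In I/R against sham, 7 genes lie right of 0 and Mvd lies left of it at -0.49; for I/R + rapamycin against I/R, Mvd lies right of 0 at 0.31 and the other 7 lie left of it.

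Other measures moved with these groups, and their part in the differences was not tested. The 8 of 10 listed stress genes that have a symbol, among them Fos and Egr1, summed to 310 to 390 CPM in I/R + rapamycin libraries, 354 to 1663 CPM in I/R libraries and 571 to 3433 CPM in sham libraries. The 3 haemoglobin genes summed to 84.8 to 524 CPM in I/R + rapamycin libraries, 1242 to 3332 CPM in I/R libraries and 245 to 2552 CPM in sham libraries. The 6 proximal tubule markers summed to 7681 to 9210 CPM in I/R + rapamycin libraries, 9406 to 10364 CPM in I/R libraries and 8144 to 10780 CPM in sham libraries. The 3 podocyte markers summed to 344 to 476 CPM in I/R + rapamycin libraries, 371 to 510 CPM in I/R libraries and 555 to 573 CPM in sham libraries, so every sham library was above all others. Slc12a3, the marker of the distal convoluted tubule, had 247 to 402 CPM in I/R + rapamycin libraries, 305 to 474 CPM in I/R libraries and 451 to 572 CPM in sham libraries, and the rapamycin libraries were all below the sham libraries. Fold changes also ran with gene length over the 11232 genes with an FPKM that were tested, with Spearman's rho of -0.483 for I/R + rapamycin against I/R, -0.256 for I/R + rapamycin against sham and 0.304 in I/R against sham, a description across genes, which are not independent. Mvd, Idi1, Sqle and Cyp51 have implied lengths of 3143 to 3502 bases, near the median, and with the trend removed Mvd was at -0.49 and Idi1 at 0.63 in I/R against sham. The values of the longer genes shifted more: for I/R + rapamycin against I/R, the log2 fold change became -0.02 for Fdft1, 0.14 for Fdps and -0.15 for Lss. The thick ascending limb markers varied as well. The sum of Umod and Slc12a1 was 4350 CPM in I/R + rapamycin 1 and 3918 CPM in I/R 3, against 1950 to 2745 CPM in the other 7 libraries. Fdft1 had 268 CPM and 365 CPM in those high libraries. It had 276 CPM in I/R + rapamycin 2 and 280.0 CPM in I/R 2, where the sum was 2745 and 2631 CPM. In I/R + rapamycin 3 and I/R 1 it had 143 and 177 CPM, at sums of 2063 and 1950 CPM. The sham libraries had 188 to 205 CPM of Fdft1 at sums of 2215 to 2422 CPM. The part of the thick ascending limb in the level of Fdft1 was not tested.

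Setting Mvd against the other 7 within each library removes what all 8 share. This contrast was chosen after the values were seen, because Mvd differed the other way from the other 7, and carries no test. Some separation of the groups is therefore built into it. It is also not adjusted for the trend with gene length given above. The log2 FPKM of Mvd minus the mean of the other 7 was -1.57, -1.60 and -1.35 in I/R + rapamycin kidneys, -1.93, -1.93 and -2.17 in I/R kidneys, and -1.16, -0.984 and -1.25 in sham kidneys. None of the 3 groups overlapped another on this scale, with I/R kidneys lowest, rapamycin-treated kidneys between and sham kidneys highest. The ratio of Mvd to Idi1 in FPKM was 0.326, 0.357 and 0.355 in I/R + rapamycin kidneys, 0.292, 0.251 and 0.224 in I/R kidneys, and 0.574, 0.584 and 0.483 in sham kidneys. This ratio of adjacent enzymes separated the sham libraries from the rest by more than it separated the rapamycin libraries from the I/R libraries. The summed FPKM of the 8 was 64.7, 65.5 and 50.2 in I/R + rapamycin kidneys. It was 61.3, 69.7 and 83.3 in I/R kidneys and 51.7, 52.0 and 59.3 in sham kidneys. On this sum every I/R library lay above every sham library, while the rapamycin libraries overlapped both of these groups.

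From library to library, the correlations among the 7 enzymes other than Mvd were all positive, but only 5 of their 21 pairs passed the test, none of them with Lss or Fdft1. Over the 28 pairs of genes, log2 CPM in the 9 libraries had a median Pearson r of 0.528, and the 21 pairs without Mvd had a median of 0.697. The 7 pairs with Mvd had a median of -0.454 and a range of -0.615 to 0.0629, and none reached an adjusted p under 0.05. After the group means were subtracted, 6 of the 7 Mvd pairs were positive, at a median r of 0.702, and the exception was Lss at -0.170. Within a group, Mvd tended to be high in the libraries in which most of the others were high, as far as 3 libraries a group can show. The 21 other pairs were positive after subtraction as well, at a median of 0.600.

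The closest pair was Idi1 and Sqle, at r = 0.954 and Spearman's rho = 0.950. The exact permutation p over all pairings of the 9 libraries was 0.000138 for r and 0.000353 for rho, two-sided, which became 0.00386 and 0.00988 after Benjamini-Hochberg adjustment over the 28 pairs. Without the 2 libraries farthest from the median of Idi1, which were I/R 3 and sham 1, r was 0.890, and after subtraction of group means it was 0.943. Cyp51 followed Idi1 at r = 0.878 and rho = 0.817 (exact permutation adjusted p 0.0128 and 0.0754) and Sqle at r = 0.874 and rho = 0.883 (0.0128 and 0.0287). It followed Fdps at r = 0.865 and rho = 0.917 (0.0128 and 0.0184), and r was 0.702, 0.721 and 0.958 in these pairs without the 2 farthest libraries. Hmgcs1 and Sqle had r = 0.811 and rho = 0.8, with exact permutation adjusted p of 0.0487 and 0.0774, and r = 0.641 without the 2 farthest libraries. Those 5 pairs were the ones with an adjusted p under 0.05 by r, and 3 of them had one by rho. The permutation took no account of the 3 groups, so these p-values also take in differences between groups that both genes share. The points of a pair share their library, so depth, tissue sampling and RNA quality are common to both genes.

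**Figure D4:**
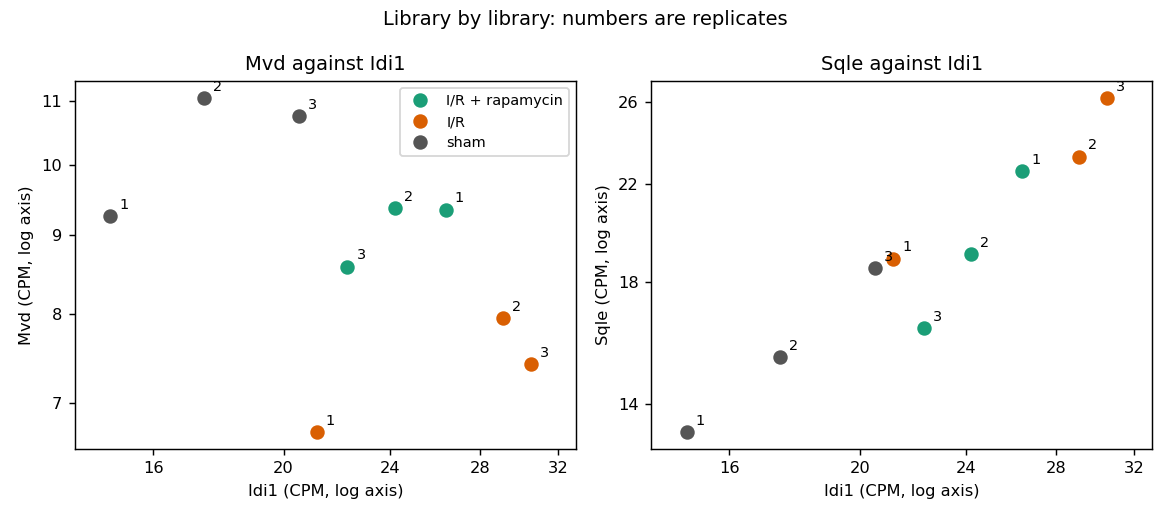
CPM of Mvd (left, y axis) and of Sqle (right, y axis) against CPM of Idi1 (x axes) in the 9 libraries, on log axes; colours are groups and numbers are replicates. Sqle is high where Idi1 is high (r = 0.954), whereas the I/R libraries lie low for Mvd at 6.70 to 7.95 CPM and the sham libraries lie high for Mvd and low for Idi1.

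The rest of the sterol pathway was read from a list of 11 further enzymes, of which 10 were tested. None was called in any comparison over all genes. Unadjusted p was under 0.05 for 4 of the 10, all higher, for I/R + rapamycin against sham, beside 6.06% of all genes higher. It was under 0.05 for 4, all higher, in I/R against sham, beside 4.83% of all genes higher, and for 0 for I/R + rapamycin against I/R, beside 16.3% of all genes either way. Their median log2 fold changes were 0.135 for I/R + rapamycin against I/R, 0.297 for I/R + rapamycin against sham and 0.176 in I/R against sham. Between rapamycin-treated and untreated I/R kidneys, 7 of the 10 were thus above 0, beside 50.8% of all genes, where 7 of the 8 enzymes above were below it. Tm7sf2, a sterol reductase, had 17.2, 15.9 and 12.7 CPM in I/R + rapamycin kidneys, 10.6, 11.7 and 17.7 CPM in I/R kidneys and 7.08, 6.45 and 9.0 CPM in sham kidneys. Sham libraries were below all others, at a log2 difference of 1.02 (SE 0.214, adjusted p 0.102 by edgeR) for I/R + rapamycin against sham and 0.83 (SE 0.213, adjusted p 0.276) for I/R against sham.

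Msmo1, the methyl sterol oxidase that acts after Cyp51, averaged 44.2 ± 4.16 CPM in I/R + rapamycin kidneys, 37.8 ± 1.22 CPM in I/R kidneys and 30.9 ± 4.50 CPM in sham kidneys (SD, n = 3 each). Its log2 fold change against sham was 0.52 in I/R + rapamycin kidneys (SE 0.116, adjusted p 0.115 by edgeR) and 0.29 in I/R kidneys (SE 0.116, adjusted p 0.472). The values of Msmo1 were thus highest with rapamycin, unlike those of Hmgcs1. Nsdhl, a sterol dehydrogenase, was at 0.27 for I/R + rapamycin against sham and 0.28 in I/R against sham, with adjusted p of 0.335 and 0.486 by edgeR. Mvk, the mevalonate kinase, was at 0.41 for I/R + rapamycin against sham (SE 0.179, adjusted p 0.348 by edgeR). Dhcr7, which acts late in the pathway, was at 0.66 in I/R against sham (SE 0.275, adjusted p 0.503 by edgeR).

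**Figure D5:**
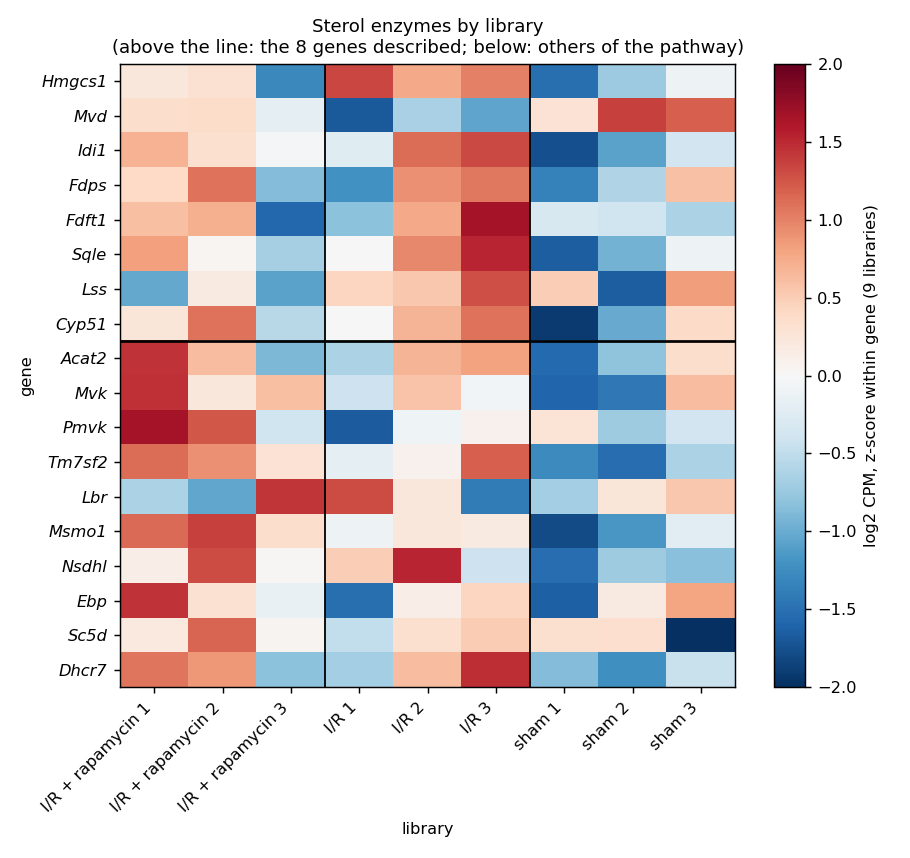
Log2 CPM of 18 sterol synthesis enzymes (rows) in the 9 libraries (columns), as a z-score within each gene over the 9 libraries; the 8 genes described stand above the line and 10 others of the pathway below it. Mvd is low in the I/R columns, where Hmgcs1 is high, and Tm7sf2 and Msmo1 are low in the sham columns.

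The transcripts of the control system were measured as well, with 10 of 12 listed genes tested and none called over all genes. Srebf2, which encodes SREBP-2, averaged 45.6 ± 3.33 CPM in I/R + rapamycin kidneys, 48.7 ± 7.65 CPM in I/R kidneys and 42.2 ± 4.68 CPM in sham kidneys (SD, n = 3 each). These overlapped, with log2 fold changes of -0.09 for I/R + rapamycin against I/R (SE 0.126, adjusted p 0.758 by edgeR) and 0.21 in I/R against sham (SE 0.126, adjusted p 0.656). Srebf1, which encodes the SREBP-1 forms known for fatty acid synthesis, had 35.9, 32.9 and 27.3 CPM in I/R + rapamycin kidneys, against 42.9, 45.9 and 48.0 CPM in I/R kidneys. Its groups did not overlap, at a log2 difference of -0.51 (SE 0.159, unadjusted p 0.00888, adjusted p 0.179 by edgeR). Insig1, itself an SREBP target, averaged 50.3 ± 7.97 CPM in I/R + rapamycin kidneys, 55.1 ± 5.5 CPM in I/R kidneys and 39.5 ± 10.9 CPM in sham kidneys (SD, n = 3 each). The groups of Insig1 overlapped in every comparison. The order of its means was also that of Hmgcs1, Idi1, Fdps, Fdft1, Sqle and Cyp51. Its log2 fold change in I/R against sham was 0.48 (SE 0.186, adjusted p 0.464 by edgeR). Scap was at -0.17 for I/R + rapamycin against I/R (SE 0.0890, adjusted p 0.376 by edgeR). Erlin2, which takes part in the sterol-dependent turnover of membrane proteins, was at -0.21 for I/R + rapamycin against I/R (SE 0.0808, adjusted p 0.253) and 0.25 in I/R against sham (SE 0.0808, adjusted p 0.381) by edgeR. Mtor, the kinase that rapamycin inhibits with its binding protein, was at -0.21 for I/R + rapamycin against I/R (SE 0.0947, adjusted p 0.311 by edgeR), and its transcript level does not report kinase activity. In the list as a whole, unadjusted p was under 0.05 for 2 of the 10 genes, both lower, for I/R + rapamycin against I/R, beside 16.3% of all genes either way and 9.14% lower, which is near the background and is not read as a result about the list. It was under 0.05 for 0 for I/R + rapamycin against sham, beside 13.8% of all genes, and for 2, both higher, in I/R against sham, beside 4.83% of all genes higher.

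Branches that leave the pathway were read from further lists. Of 13 tested genes of the isoprenoid branch, which uses farnesyl diphosphate, 0 had unadjusted p under 0.05 for I/R + rapamycin against I/R, 1 (Pggt1b, -0.34 on the log2 scale, adjusted p 0.253 by edgeR) was lower for I/R + rapamycin against sham and 1 (Fntb, -0.23, adjusted p 0.501) was lower in I/R against sham. None was called. Of 15 tested genes of cholesterol transport, 2 were higher and 2 lower at unadjusted p under 0.05 for I/R + rapamycin against I/R, 1 higher and 3 lower for I/R + rapamycin against sham and 1 higher in I/R against sham, again with none called. Over all genes the share with unadjusted p under 0.05 was 16.3% for I/R + rapamycin against I/R, 13.8% for I/R + rapamycin against sham and 9.42% in I/R against sham, and the counts in both lists are not read as results about them. Stard4, a cytosolic sterol carrier and SREBP target, had 9.22, 9.91 and 10.2 CPM in I/R + rapamycin kidneys, 15.6, 15.2 and 13.4 CPM in I/R kidneys and 10.4, 9.42 and 11.4 CPM in sham kidneys. The I/R libraries of Stard4 were above all 6 others, as for Hmgcs1, with log2 fold changes of -0.59 (SE 0.124, adjusted p 0.0959 by edgeR) for I/R + rapamycin against I/R and 0.50 (SE 0.123, adjusted p 0.266) in I/R against sham. Scarb1, a lipoprotein receptor, averaged 15.1 ± 2.5 CPM in I/R + rapamycin kidneys and 38.2 ± 12.9 CPM in I/R kidneys (SD, n = 3 each), a log2 difference of -1.34 (SE 0.359, adjusted p 0.163 by edgeR). Npc2, which carries cholesterol in the lysosome, was at 0.35 for I/R + rapamycin against I/R (SE 0.0888, adjusted p 0.134 by edgeR) and Nr1h3, an oxysterol receptor, at 0.25 (SE 0.0910, adjusted p 0.232). Soat1, which esterifies cholesterol, was at -0.32 (SE 0.103, adjusted p 0.220 by edgeR) and Abcg1, a sterol exporter, at -0.69 (SE 0.224, adjusted p 0.228) for I/R + rapamycin against sham, where Npc2 was at 0.35 (adjusted p 0.154) and Scarb1 at -1.09 (adjusted p 0.248).

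By likeness over the 9 libraries, the genes with a symbol and a mean of at least 5 CPM were ranked by Pearson's r with the mean z-score of the 8. Among 10373 candidates the highest were Gmps at 0.968, Aqp1 at 0.962, Rhpn1 at 0.955, Bhlhe41 at 0.955, Proc at 0.954 and Spsb4 at 0.948. The lowest were Zfp799 at -0.991, Foxo4 at -0.986 and Gimap8 at -0.957. These are the extremes of many values over 9 libraries and are given as a description. The mean z-score was 0.289, 0.510 and -0.775 in I/R + rapamycin libraries, -0.274, 0.634 and 0.985 in I/R libraries and -0.966, -0.628 and 0.224 in sham libraries. The groups overlapped on it, and the lowest values belonged to sham 1 and I/R + rapamycin 3.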

How the data were processed

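RNA from rat kidney was sequenced as poly(A) libraries of 150-base paired reads, per the labels' protocols. The authors deposited raw counts per gene and FPKM values for part of the genes. DESeq2, StringTie, HISAT2, cutadapt and the build Rnor_6.0 are named, in no order, in the submitters' processing notes; the strand setting is not given in the sources used here. Counts in both tables were equal for all 11235 genes of the FPKM table, each of which reached 1 FPKM in 8 or more of the 9 libraries.

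Counts were tested with edgeR 4.0.16 in R 4.3.3 (TMM, filterByExpr, robust quasi-likelihood fit of all 9 libraries without covariates), with Benjamini-Hochberg adjustment over 17335 genes and a threshold of 0.05. The procedure was run on simulated data with planted changes, where the check required recovery of the largest ones only. Recovery of changes as small as those of the 8 is not given here. DESeq2 1.42.0, limma 3.58.1 on log2(FPKM + 1), other scalings, filters and left-out libraries were alternatives. Correlations used exact permutation of 9 libraries. All samples carry the same batch label. Replicate numbers showed no sign of pairing the libraries, which the values cannot settle. The 8 genes, the other gene lists and the markers were chosen with earlier results of these data known. All 8 genes are named; of other lists, up to 4 genes with the smallest unadjusted p under 0.05 per comparison, and Srebf1, Srebf2, Scap, Insig1 and Mtor in every case. Promoter sequences are from RefSeq, GRCr8. Listed genes without a symbol in the files, such as Fasn, Npc1 and the adrenal and liver markers, were not analysed here. A gene of the sterol list is not reported here. Fdps may share reads with pseudogene copies, so its counts are uncertain.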

Additional observations from a re-analysis of the deposited data

How the results depend on the processing

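With 22 or 23 settings a gene, the reported one included, 518 of 525 alternative values of the 8 genes kept the sign of the reported value. Part of this count was fixed in advance. The setting with a threshold of 0.01 reuses the reported fit, so its values could not turn. Leaving out a library of the third group removes none of the libraries compared. The 7 that turned were all in I/R + rapamycin against I/R: Fdps at 0.00618 with upper-quartile scaling, 0.143 with the length trend removed, 0.0546 without I/R + rapamycin 3, 0.0307 without I/R 2 and 0.0395 without I/R 3, Cyp51 at 0.0207 without I/R + rapamycin 3, and Fdft1 at 0.00147 without I/R 3. With libraries left out, Fdps ranged from -0.092 to 0.0546, Cyp51 from -0.207 to 0.0207 and Fdft1 from -0.496 to 0.00147. The cause was not tested. Of the 8 genes, 1 passed the test in I/R against sham with DESeq2 and 1 without I/R 1 and sham 3 together, Idi1 both times. I/R 1 and sham 3 stand at the same end of the first principal component. They are also the lowest I/R and the highest sham library for Idi1, so leaving them out had to widen its difference. No other setting called any of the 8. The stricter filter, at least 10 CPM in 3 libraries, dropped Mvd, so no median could be given there.

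The number of genes called over the whole table was unstable. In I/R + rapamycin against I/R, 22 became 693 with DESeq2, 14 with the genes of the FPKM table only, 6 with the 6 libraries compared, 12 and 11 with limma at a pseudocount of 1 and 0.1, 0 at a threshold of 0.01 and 128 without I/R 1 and sham 3 together. It ranged from 0 to 47 with 1 library left out: 0 without I/R + rapamycin 1, I/R + rapamycin 2 or sham 1, 1 without I/R 2, 3 without I/R 3 or sham 2, 44 without sham 3 and 47 without I/R 1. In I/R + rapamycin against sham, 27 became 559 with DESeq2, 4 at 0.01 and 104 without both, with a range of 3 to 47: 3 without I/R + rapamycin 1, 5 without I/R + rapamycin 2 or sham 2, 10 without sham 1, 14 without I/R 2 and 47 without I/R 1. In I/R against sham, 10 became 242 with DESeq2, 17 with the FPKM table genes, 2 with the 6 libraries compared, 22 and 25 with limma at 1 and 0.1, 29 with the length trend removed, 0 at 0.01 and 67 without both, with a range of 0 to 36: 0 without I/R 3 or sham 2, 2 without I/R + rapamycin 2, 3 without sham 1, 4 without I/R 2, 5 without I/R + rapamycin 1, 16 without sham 3 and 36 without I/R 1.

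Same-numbered libraries of different groups had correlations of their deviations between -0.187 and 0.132. Differently numbered libraries had -0.124 to 0.237, so no sign of pairing by number was seen. With 3 libraries a group, these values cannot decide whether same-numbered libraries belong together. With the replicate number as a block the genes called were 1, 7 and 1 in the same order, and no call on the 8 genes changed. The median r over the 28 pairs, 0.528, was 0.617 after subtraction of group means and with single libraries left out it was lowest at 0.398 (I/R + rapamycin 3) and highest at 0.647 (I/R 1 or sham 1), an alternative added after seeing the data. With 1 mismatch allowed, TCACNCCAC was found in 2 of the 6 promoters, those of Fdps and Cyp51, and in 23.7% of all promoters. Medians of the 8 kept their sign in every setting that gave one, from -0.301 to -0.0324 in I/R + rapamycin against I/R, 0.0652 to 0.343 in I/R + rapamycin against sham and 0.257 to 0.601 in I/R against sham. With 373 to 647 reads, Mvd carries more counting error than the other 7.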

Other observations

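Cyp39a1, which hydroxylates an oxysterol on the way to bile acids in liver, averaged 8.24 ± 1.08 CPM in I/R + rapamycin kidneys, 6.25 ± 0.246 CPM in I/R kidneys and 4.23 ± 0.524 CPM in sham kidneys (SD, n = 3 each). No group overlapped another. The log2 fold change against sham was 0.96 in I/R + rapamycin kidneys (SE 0.163, adjusted p 0.0645 by edgeR) and 0.56 in I/R kidneys (SE 0.163, adjusted p 0.308), and 0.40 in I/R + rapamycin against I/R (SE 0.162, adjusted p 0.267). It did not pass the test, and 1 of 5 tested oxysterol enzymes had unadjusted p under 0.05 in each comparison, Cyp39a1 every time. Over all genes the share was 16.3% for I/R + rapamycin against I/R, 13.8% for I/R + rapamycin against sham and 9.42% in I/R against sham. The count is not read as a result about that list. Fatty acid synthesis genes, with 11 of 16 tested and none called, had a median log2 fold change of -0.212 in I/R + rapamycin against I/R, -0.203 in I/R + rapamycin against sham and 0.0560 in I/R against sham. Acly, which supplies cytosolic acetyl-CoA, was at -0.31 in I/R + rapamycin against I/R (SE 0.126, adjusted p 0.267 by edgeR) and -0.33 against sham (SE 0.126, adjusted p 0.286). Elovl1, a fatty acid elongase, was at 0.21 (SE 0.0790, adjusted p 0.244) and 0.26 (SE 0.0790, adjusted p 0.199) in the same comparisons. Elovl5, another elongase, was at -0.20 (SE 0.0777, adjusted p 0.291) and Fads2, a desaturase, at -0.39 (SE 0.175, adjusted p 0.359) for I/R + rapamycin against sham, and Me1, which makes NADPH, was at 0.22 for I/R against sham (SE 0.0902, adjusted p 0.494), by edgeR.

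The genes whose log2 CPM followed Mvd most closely over the 9 libraries, looked up after the values were seen and given with no test, were Rpl21 at r = 0.983, Capzb at 0.958, Psmc5 at 0.946, Aspa at 0.946 and Glo1 at 0.945. Of the 100 closest genes, 22 had symbols of ribosomal protein genes (Rpl or Rps with a number), beside 1.05% of the 10373 candidates. The same count was 1 for Hmgcs1 and Cyp51 and 0 for Idi1, Fdps, Fdft1, Sqle and Lss. These correlations were not adjusted for the trend with gene length given above, and its part in the counts was not tested.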
